A study of Sus scrofa with 6 samples.

Results

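The HOX genes were examined across 6 pig cell samples: 2 somatic cultures and 4 induced pluripotent stem (iPS) cell lines, each hybridised to 1 Affymetrix Pig Genome Array. Every probe set whose platform annotation gave exactly 1 symbol, and that symbol HOXA, HOXB, HOXC or HOXD with a number, was taken. This gave 8 probe sets for 6 genes, out of 23999 probe sets that were not array controls. HOXA3 (Ssc.25144.1.S1_at), HOXA9 (Ssc.26748.1.A1_at), HOXD8 (Ssc.3450.1.S1_at) and HOXD10 (Ssc.23551.1.S1_at) had 1 probe set each, and HOXB7 and HOXD12 had 2 each. The pig RefSeq table of assembly Sscrofa11.1 lists 36 HOX genes, so 6 of 36 were measured: 2 of 11 in cluster A, 1 of 8 in B, 0 of 9 in C and 3 of 8 in D. Ordered by their starts in that table, the measured genes of cluster D come as HOXD12, HOXD10 and HOXD8.

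PEF was a culture of pig embryo fibroblasts and PAFSC a culture of pig amniotic fluid stem cells, and the labels call both somatic. The iPS lines are grouped by the stage-specific embryonic antigens (SSEA) in their labels, which are cell-surface glycans used as pluripotency markers. PS24 was labelled positive for SSEA1, SSEA3 and SSEA4, and 30AC5 for SSEA1; together they are called the SSEA1-labelled lines. iPF4-2 and iPSCs-w were labelled positive for SSEA3 and SSEA4 and are called the SSEA3/SSEA4-only lines. The medium of all cultures was DMEM with 15% fetal bovine serum. The iPS lines were kept on inactivated mouse embryo fibroblast feeders, and the labels do not say how feeder cells were removed before RNA extraction. The study set lines made in its own laboratory beside lines from other laboratories, and the labels do not say which is which. They also do not give the donor animal, its age or sex, the passage, or the starting cell of each line.

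HOX genes encode homeodomain transcription factors and lie in 4 chromosomal clusters in mammals. They are switched on along the body axis in the order in which they lie in the cluster, with low-numbered genes marking anterior and high-numbered genes posterior positions. Fibroblasts keep a HOX pattern that reflects where in the body they came from, while in pluripotent cells the clusters are held mostly silent by Polycomb complexes, opposed by Trithorax complexes and opened by retinoic acid.

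The deposited values are relative, positive and negative around 0, and are read here as log2; neither the base of the logarithm nor the baseline is given in the sources used here. Arrays can therefore be compared within a probe set, genes cannot be compared with each other, and a value near 0 does not mean that a gene is silent. In 18.19% of all probe sets a pair of arrays had values equal in size and opposite in sign (within 1e-06). HOXA3, in PAFSC and PS24, and 1 probe set of HOXD12, in PEF and iPF4-2, were among them. Each line was 1 array, so a level has no replicate spread of its own. The limma p-values below use the spread between different lines, and the labels do not describe any of them as repeats of a culture. Precision is limited by there being 6 arrays.

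The PAFSC array stands apart from the rest. Its values had an SD of 2.01, against 0.610 to 0.808 on the other arrays, and a median of 0.70, against -0.06 to 0.05. On PAFSC the 17 tag controls, designed sequences with no pig target, read 1.06 to 3.52, and on the other arrays -0.61 to 0.74. The difference between 5′ and 3′ control probe sets of GAPDH, actin and EF1A, relative to the other arrays, was 2.22 in PAFSC, -2.34 in PS24 and -0.09 to 0.17 in the remaining arrays. For the HOX genes the PAFSC differences touch the somatic side of every comparison with somatic cells. The PS24 deviation touches the iPS side, and the SSEA1-labelled side of the comparison between iPS classes. On PAFSC the values of HOXD12 (first probe set) and of both HOXB7 probe sets lay inside the tag-control range. The other 5 of the 8 lay below the lowest tag control of PAFSC, as did 57.4% of all probe sets. HOX values on other arrays also lay inside their tag-control ranges, as for HOXB7 in PEF. Because each probe set has its own baseline, a place inside or below such a range does not show that a gene is silent. The part of these array differences in the HOX values was not tested; each HOX difference named below between iPS lines and somatic cells is given with and without PAFSC.

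The labels were set against marker genes. The fibroblast and mesenchymal markers (16 of 19 genes measured, 34 probe sets) had medians of 1.63 in PEF and 2.02 in PAFSC, and of -0.47 to 0.08 in the iPS lines. The pluripotency markers (6 of 14 genes, 7 probe sets) had medians of 2.31 in iPF4-2 and 2.88 in iPSCs-w. In PS24 and 30AC5 these medians were 0.04 and -0.12, above PEF at -0.75. PAFSC was at 0.55, below the median of all probe sets on that array, 0.70. POU5F1, the transcription factor OCT4, read -0.50 in PEF and 1.09 in PAFSC among the somatic samples, 0.07 in PS24 and -0.07 in 30AC5 with SSEA1, and 3.68 in iPF4-2 and 3.61 in iPSCs-w without it. The SSEA1-labelled lines thus carried a pluripotent label without the raised marker values of the SSEA3/SSEA4-only lines. Markers of other cell types also varied. Epithelial markers (12 of 14 genes) had medians of 1.24 in iPSCs-w, 0.72 in 30AC5 and 0.65 in iPF4-2, against -0.34 to 0.24 in the other arrays. Endothelial markers (9 of 9 genes) had a median of 1.95 in PAFSC and -0.22 to 0.09 elsewhere. The tag controls on PAFSC had a median of 1.93, and 17 of the 18 endothelial probe sets were highest in that array. Mesenchymal and amniotic stem cell surface markers (7 of 12 genes) had medians of 1.10 in PEF and 1.41 in PAFSC, and of -0.46 to 0.39 in the iPS lines. On PAFSC the fibroblast, surface-marker and endothelial medians all lay within its tag-control range of 1.06 to 3.52. The part of that array's shift in these medians was not tested. In bulk RNA, fewer cells of a type and less RNA per cell cannot be told apart.

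**Figure D1:**
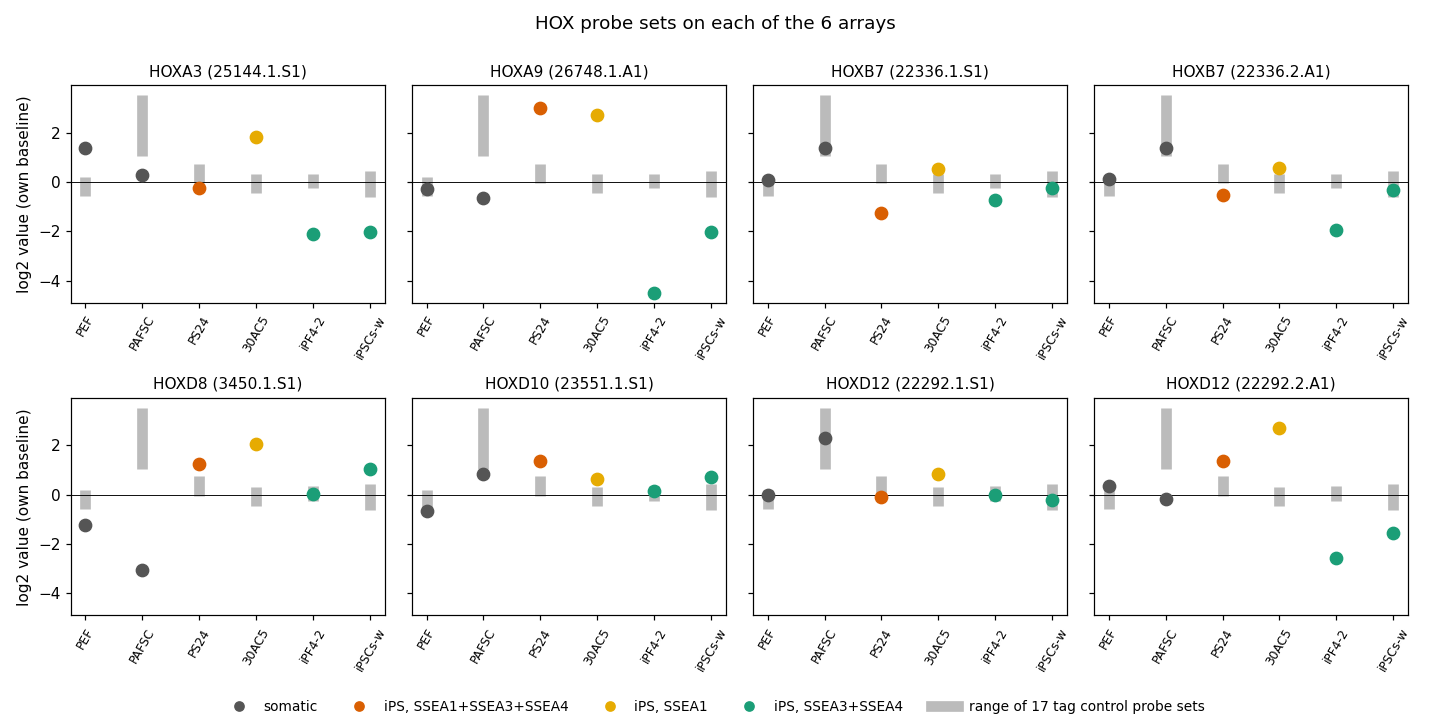
Each panel shows 1 HOX probe set, with the 6 arrays on the horizontal axis and the deposited log2 value, relative to the probe set's own baseline, on the vertical axis; points are single arrays coloured by label, and grey bars span the 17 tag controls of that array. HOXA9 ranges from -4.49 in iPF4-2 to 2.99 in PS24, while HOXD10 stays between -0.67 and 1.38.

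The question of the first comparison was how HOX genes in the 4 iPS lines stood relative to the somatic cells. In these data the family did not shift as a block: in iPS minus somatic 3 of 8 probe sets were higher and 5 lower, where 39.1% of all probe sets were higher and 60.9% lower. The median HOX difference was -0.56, and that of all probe sets was -0.34. HOXD8 was the gene furthest above the somatic cells, HOXA3 and HOXB7 were lower on average, and HOXA9 and the second HOXD12 probe set ran in opposite directions in different iPS lines. None of the 8 passed limma (Benjamini-Hochberg over 23999 probe sets, adjusted p under 0.05), and 6 of all probe sets, 0.0250%, did. At an unadjusted p under 0.05, limma gave 1 of 8 HOX probe sets and 13.7% of all. Without PAFSC limma called 0 of 8 HOX probe sets and 0.567% of all.

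HOXA3 belongs to the anterior part of cluster A and patterns the pharyngeal region, including thymus and parathyroid. Its value was 1.37 and 0.26 in the somatic cultures PEF and PAFSC, -0.26 and 1.82 in PS24 and 30AC5, and -2.10 and -2.05 in iPF4-2 and iPSCs-w. 30AC5 was highest and PEF came next, while both SSEA3/SSEA4-only lines lay well below every other array. The iPS and somatic groups overlapped, because of 30AC5. The iPS mean was -0.65 ± 1.86 (SD, n = 4) and the somatic mean 0.81 ± 0.78 (SD, n = 2), a difference of -1.46 (SE 1.08, limma adjusted p = 0.461). Without PAFSC the difference was -2.01 (limma adjusted p = 0.684).

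HOXB7 is a central gene of cluster B, active in the trunk. The first probe set (Ssc.22336.1.S1_at) read 0.08 in PEF and 1.36 in PAFSC among the somatic samples, -1.26 in PS24 and 0.53 in 30AC5 with SSEA1, and -0.74 in iPF4-2 and -0.24 in iPSCs-w without it. The second (Ssc.22336.2.A1_at) read 0.13, 1.36, -0.53, 0.58, -1.94 and -0.31 in the same order of arrays. Both probe sets placed PAFSC first, 30AC5 next and PEF after it, and they differed in whether PS24 or iPF4-2 was lowest. The iPS minus somatic differences were -1.15 (SE 0.65, limma adjusted p = 0.429) and -1.30 (SE 0.74, limma adjusted p = 0.431). Both rested largely on PAFSC: without it they were -0.50 and -0.69. The HOXB7 values lay inside the tag-control range on PAFSC, and also on PEF (0.08 and 0.13, range -0.56 to 0.19).

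HOXD8 is a central gene of cluster D. It was -1.22 and -3.04 in the somatic cultures PEF and PAFSC, 1.23 and 2.04 in PS24 and 30AC5, and 0.01 and 1.02 in iPF4-2 and iPSCs-w. All 4 iPS lines lay above both somatic samples, as 11.9% of all probe sets did in that direction. HOXD8 was 1 of 8 HOX probe sets to do so, and 0 of 8 lay wholly below the somatic samples, against 9.99% of all. The iPS mean was 1.08 ± 0.84 (SD, n = 4) and the somatic mean -2.13 ± 1.29 (SD, n = 2). The difference of 3.20 (SE 0.73, 95% interval 1.54 to 4.87) gave a limma adjusted p of 0.193, and 1.52% of all probe sets had a difference as large in either direction. Without PAFSC it was 2.29 (limma adjusted p = 0.315). Without PEF it was 4.12 and passed (limma adjusted p = 0.00628), in a fit that then called 59.6% of all probe sets with PAFSC as the only somatic array. It also passed with the least variable 40% of probe sets left out (limma adjusted p = 0.0307), where 3.63% of the rest were called.

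HOXA9 is a posterior gene of cluster A, best known for its role in blood stem and progenitor cells. Its value was -0.29 in PEF and -0.64 in PAFSC among the somatic samples, 2.99 in PS24 and 2.71 in 30AC5 with SSEA1, and -4.49 in iPF4-2 and -2.02 in iPSCs-w without it. The arrays split into high SSEA1-labelled lines, intermediate somatic cells and low SSEA3/SSEA4-only lines, with no overlap between the 3 sets. The iPS mean of -0.21 therefore describes no line (SD 3.67, n = 4), and the iPS minus somatic difference was 0.26 (SE 1.96, limma adjusted p = 0.939). The difference was 0.08 without PAFSC.

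HOXD10 is a posterior gene of cluster D, active in the limb and in lumbar motor neurons. It read -0.67 and 0.84 in the somatic cultures PEF and PAFSC, 1.38 and 0.63 in PS24 and 30AC5, and 0.14 and 0.73 in iPF4-2 and iPSCs-w. PEF was lowest and every iPS line lay above it, but PAFSC fell among the iPS lines. The iPS minus somatic difference was 0.63 (SE 0.60, limma adjusted p = 0.525), 1.39 without PAFSC and -0.12 without PEF. The sign of the HOXD10 difference therefore depended on which somatic sample was used.

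HOXD12 is a posterior gene of cluster D that acts in the forming digits. Its first probe set (Ssc.22292.1.S1_at) read -0.00 in PEF and 2.30 in PAFSC among the somatic samples, -0.11 in PS24 and 0.83 in 30AC5 with SSEA1, and 0.00 in iPF4-2 and -0.23 in iPSCs-w without it. Its second probe set (Ssc.22292.2.A1_at) read 0.33 and -0.17 in the somatic cultures PEF and PAFSC, 1.38 and 2.71 in PS24 and 30AC5, and -2.58 and -1.55 in iPF4-2 and iPSCs-w. The probe sets disagreed: the first was highest in PAFSC, where the value lay inside the tag-control range, with 30AC5 next, and the second followed the HOXA9 order of high SSEA1-labelled, intermediate somatic and low SSEA3/SSEA4-only lines. After quantile normalization the first was highest in 30AC5 (1.11, against 0.95 in PAFSC). The correlation between them over the 6 arrays was 0.21, and 0.67 over the 5 arrays other than PAFSC. The iPS minus somatic difference was -1.02 for the first (SE 0.70, limma adjusted p = 0.450) and 0.13 without PAFSC. For the second it was -0.09 (SE 1.36, limma adjusted p = 0.970) and -0.34 without PAFSC.

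**Figure D2:**
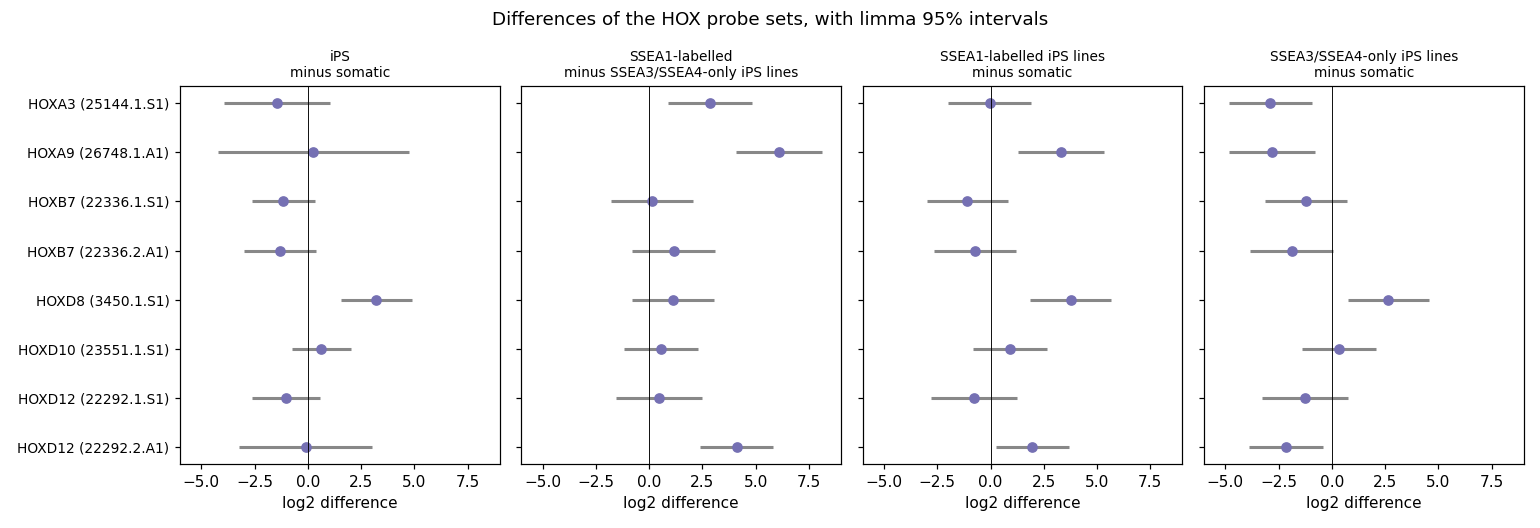
Points are log2 differences of the 8 HOX probe sets in 4 comparisons and bars are limma 95% intervals; the vertical line marks 0, and the comparisons against somatic cells share the same 2 somatic arrays. In the comparison between iPS classes every point lies above 0, led by HOXA9 at 6.10, while in iPS minus somatic HOXD8 at 3.20 is the 1 probe set whose interval lies wholly above 0.

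The next comparison set the SSEA1-labelled lines against the SSEA3/SSEA4-only lines, which asks whether HOX values went with the surface markers in the labels. All 8 HOX probe sets were higher on average in the SSEA1-labelled lines, where 50.5% of all probe sets were higher and 49.5% lower. HOXA9 and the second HOXD12 probe set, both posterior, differed most and HOXA3 came next, while HOXB7, HOXD8, HOXD10 and the first HOXD12 probe set differed by 0.12 to 1.15. The median difference was 1.13 for HOX and 0.01 for all probe sets. None of the 8 passed limma (adjusted p under 0.05), nor did any of the 23999 probe sets (0.00%). Without PAFSC the count was 0 of 8 and 0.0167% of all. At an unadjusted p under 0.05 limma gave 3 of 8 HOX probe sets and 2.84% of all. The 3 were higher in the SSEA1-labelled lines, as were 1.72% of all.

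For HOXA9 the SSEA1-labelled mean was 2.85 ± 0.20 (SD, n = 2) and the SSEA3/SSEA4-only mean -3.26 ± 1.75 (SD, n = 2). The difference was 6.10 (SE 0.87, 95% interval 4.08 to 8.13, limma adjusted p = 0.234), and 0.0375% of all probe sets had one as large. It ranked 9 by size among the 23999. Both SSEA1-labelled lines were higher than both others. With any 1 array left out the difference was 4.87 to 7.34, which includes the fit without PS24, whose 5′/3′ controls deviated. Quantile normalization between arrays gave 7.15 and passed (limma adjusted p = 0.0381), in a fit that called 0.375% of all probe sets. It also passed with the least variable 40% left out (limma adjusted p = 0.00022), where 0.424% of the rest were called.

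For the second HOXD12 probe set the means were 2.05 ± 0.94 and -2.07 ± 0.73 (SD, n = 2 each). The difference was 4.11 (SE 0.74, 95% interval 2.39 to 5.84, limma adjusted p = 0.392), with both SSEA1-labelled lines above both others. With any 1 array left out, PS24 among them, it was 3.45 to 4.78, and after quantile normalization 4.99 (limma adjusted p = 0.0381). The first HOXD12 probe set differed by only 0.47 (SE 0.87, 95% interval -1.54 to 2.49), so the HOXD12 contrast was seen by 1 of its 2 probe sets.

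HOXA3 averaged 0.78 ± 1.47 in the SSEA1-labelled and -2.08 ± 0.04 in the SSEA3/SSEA4-only lines (SD, n = 2 each). The difference was 2.85 (SE 0.84, limma adjusted p = 1.00). The SSEA3/SSEA4-only lines were close to each other, and PS24 and 30AC5 were 2.08 apart, so leaving out 30AC5 lowered the difference to 1.81 and leaving out PS24 raised it to 3.90. HOXD8 differed by 1.12 (SE 0.82), HOXD10 by 0.57 (SE 0.75) and the HOXB7 probe sets by 0.12 (SE 0.82) and 1.15 (SE 0.84), each with a limma adjusted p of 1.00. The first HOXB7 probe set was -0.77 without 30AC5 and -0.13 without iPF4-2; with 1 of these lines left out, 7 of 8 HOX probe sets were higher in place of 8.

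The SSEA1-labelled lines lay wholly above the SSEA3/SSEA4-only lines for 4 of 8 HOX probe sets (HOXA3, HOXA9, HOXD8 and the second of HOXD12), against 21.0% of all probe sets. They lay wholly below for 0 of 8, against 20.2%. The SSEA3/SSEA4-only lines were below all 4 other arrays for HOXA3, HOXA9 and the second HOXD12 probe set, 3 of 8 against 8.53% of all. The SSEA1-labelled lines were above all 4 other arrays for HOXA9, HOXD8 and the second HOXD12 probe set, 3 of 8 against 4.73%. HOXA9 and the second HOXD12 probe set did both, as did 0.529% of all probe sets. With 2 probe sets, and with both drawn from the same arrays, these shares describe the members and were not tested further.

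Against the somatic cells, which both iPS classes share as the reference, the classes are given side by side. HOXA9 was 3.31 above the somatic mean in the SSEA1-labelled lines (SE 0.87, limma adjusted p = 0.565) and differed from it by -2.80 in the SSEA3/SSEA4-only lines (SE 0.87, limma adjusted p = 0.435). The second HOXD12 probe set differed by 1.96 (SE 0.74, limma adjusted p = 0.683) and by -2.15 (SE 0.74, limma adjusted p = 0.464). HOXA3 differed by -0.03 in the SSEA1-labelled lines (SE 0.84) and by -2.89 in the SSEA3/SSEA4-only lines (SE 0.84, limma adjusted p = 0.400). HOXD8 alone was above both somatic samples in both classes, by 3.76 (SE 0.82, limma adjusted p = 0.458) and by 2.65 (SE 0.82, limma adjusted p = 0.435). Without PAFSC, so against PEF alone, the same differences, in the same order, were 3.13 and -2.97 for HOXA9, 1.71 and -2.40 for the second HOXD12 probe set, -0.59 and -3.44 for HOXA3, and 2.85 and 1.74 for HOXD8.

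In SSEA1-labelled lines minus somatic, 4 of 8 HOX probe sets were higher and 4 lower, with a median of 0.44, where 39.0% of all were higher and 61.0% lower with a median of -0.34. In SSEA3/SSEA4-only lines minus somatic 2 were higher and 6 lower, with a median of -1.57, where 39.6% of all were higher and 60.4% lower with a median of -0.35. The SSEA3/SSEA4-only lines lay wholly below the somatic samples for 5 of 8 (HOXA3, HOXA9, both HOXB7 and the second HOXD12 probe set), against 18.8% of all. No HOX probe set passed limma in either comparison, and no other probe set did (0.00%). At an unadjusted p under 0.05 limma gave 3 of 8 HOX and 6.56% of all probe sets for the SSEA1-labelled lines, and 4 of 8 and 9.45% for the SSEA3/SSEA4-only lines. Without PEF, with PAFSC as the only somatic array, limma called 4 of 8 HOX probe sets for the SSEA1-labelled lines, where it called 59.3% of all, and 3 of 8 for the SSEA3/SSEA4-only lines, where it called 60.1%. Without PAFSC it called 0 of 8 for either class, where it called 0.375% and 1.50% of all.

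**Figure D3:**
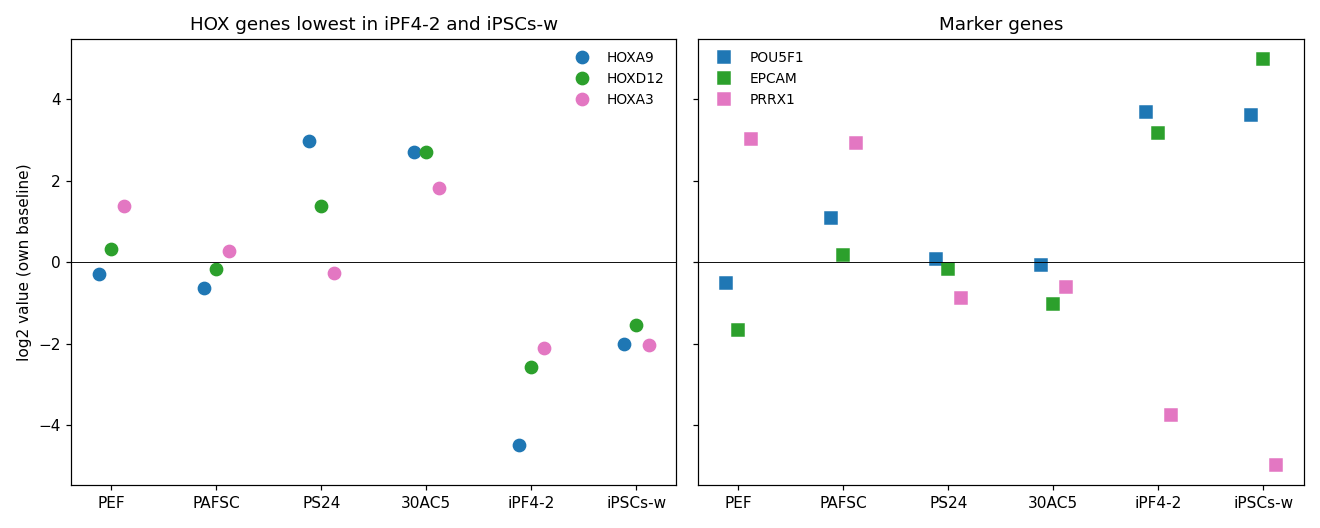
The left panel plots HOXA9, the second HOXD12 probe set and HOXA3 and the right panel POU5F1, EPCAM and PRRX1, with the 6 arrays on the horizontal axis and log2 values relative to each probe set's own baseline on the vertical axis; each point is 1 array. HOXA9 is at -4.49 and -2.02 in the lines where POU5F1 is at 3.68 and 3.61, and levels of different genes cannot be compared.

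Marker genes moved with this HOX contrast. In SSEA1-labelled minus SSEA3/SSEA4-only lines 0 of 7 pluripotency probe sets were higher and 7 lower. EPCAM, an epithelial adhesion protein also high in pluripotent cells, was 3.18 in iPF4-2 and 4.98 in iPSCs-w, and -1.67 to 0.16 in the other 4 arrays. PRRX1, a mesenchymal homeobox gene outside the HOX clusters, was 3.02 in PEF and 2.92 in PAFSC among the somatic samples, -0.89 in PS24 and -0.62 in 30AC5 with SSEA1, and -3.77 in iPF4-2 and -4.99 in iPSCs-w without it. The lines with the lowest HOXA9, HOXA3 and second HOXD12 values were thus those with the lowest PRRX1 and the highest POU5F1 and EPCAM. The wider fibroblast and mesenchymal list did not follow PRRX1 throughout: SSEA1-labelled minus SSEA3/SSEA4-only differences were above 0 for 25 of its 34 probe sets and below 0 for 9 (median 0.14). LUM at 3.77, POSTN at 3.01 and DCN at 2.34, extracellular matrix genes of fibroblasts named here after their values were seen, were by 1 probe set each higher in iPF4-2 than in both SSEA1-labelled lines. The SSEA1-labelled lines differed from the order of PRRX1: their PRRX1 values lay below the somatic samples while their HOXA9 values lay above. The part of cell makeup in the HOX differences was not tested.

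PEF was the fibroblast culture, and each line was also set against it alone, without a test. 30AC5 was higher than PEF for 8 of 8 HOX probe sets, by 0.44 to 3.26 with a median of 1.06, where 57.4% of all probe sets were higher. PS24 was higher for 4 of 8, where 61.0% of all were, with HOXA9 3.27 above and HOXA3 1.63 below PEF. iPF4-2 was higher for 3 of 8, where 60.2% of all were, with a median of -1.45 and HOXA9 lowest at -4.21. iPSCs-w was higher for 2 of 8, HOXD8 and HOXD10, where 55.8% of all were. PEF was above all 4 iPS lines for 0 of 8 HOX probe sets, against 19.1% of all, and below all 4 for HOXD8 and HOXD10, 2 of 8 against 32.4%.

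The somatic samples differed from each other as well. PAFSC was higher than PEF for 4 of 8 HOX probe sets, where 61.9% of all were higher. The HOX probe sets higher in PAFSC were the first of HOXD12 by 2.30, HOXD10 by 1.50 and HOXB7 by 1.28 and 1.23. HOXD8 was 1.82 lower in PAFSC, HOXA3 1.10 lower, the second HOXD12 probe set 0.50 lower and HOXA9 0.35 lower. These signs were not all stable to the scaling of the arrays: after quantile normalization the HOXB7 differences were -0.06 and -0.12 and that of HOXD8 was 0.63.

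The range of each HOX probe set over the 4 iPS lines was reached by 0.05% to 30.9% of all probe sets. HOXA9 spanned 7.48 over the 4 lines, a range that 0.05% of all probe sets reached. The second HOXD12 probe set spanned 5.30 (0.517% of all reached it), HOXA3 3.93 (1.66%) and the second HOXB7 probe set 2.52 (5.81%). At the other end were HOXD10 with 1.24 and the first HOXD12 probe set with 1.06, a range that 30.9% of all probe sets reached. HOXA9 and HOXA3 lie in the same cluster but did not move in the same way in PS24, where HOXA9 had its highest value and HOXA3 lay below both somatic samples.

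The likeness of the HOX patterns is given as Pearson r over the same 6 arrays, as a description. The second HOXD12 probe set and HOXA9, from different clusters, had the highest r of the 28 pairs at 0.96, also without PAFSC. HOXA3 followed the second HOXD12 probe set with r = 0.85 and HOXA9 with 0.72. The first HOXD12 probe set went with the HOXB7 probe sets (0.86 and 0.75), all of which were highest in PAFSC; without PAFSC these values were 0.67 and 0.50, and after quantile normalization 30AC5 was highest for all 3. HOXD8 went against the first HOXD12 probe set (-0.63), and this turned to 0.49 without PAFSC. HOXD8 and HOXD10, near neighbours in cluster D, had 0.30 over all arrays and 0.83 without PAFSC. The median over the 28 pairs was 0.31, with 6 pairs above 0.7 and 6 below 0. All pairs share the 6 arrays, so a single array can set several of them.

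**Figure D4:**
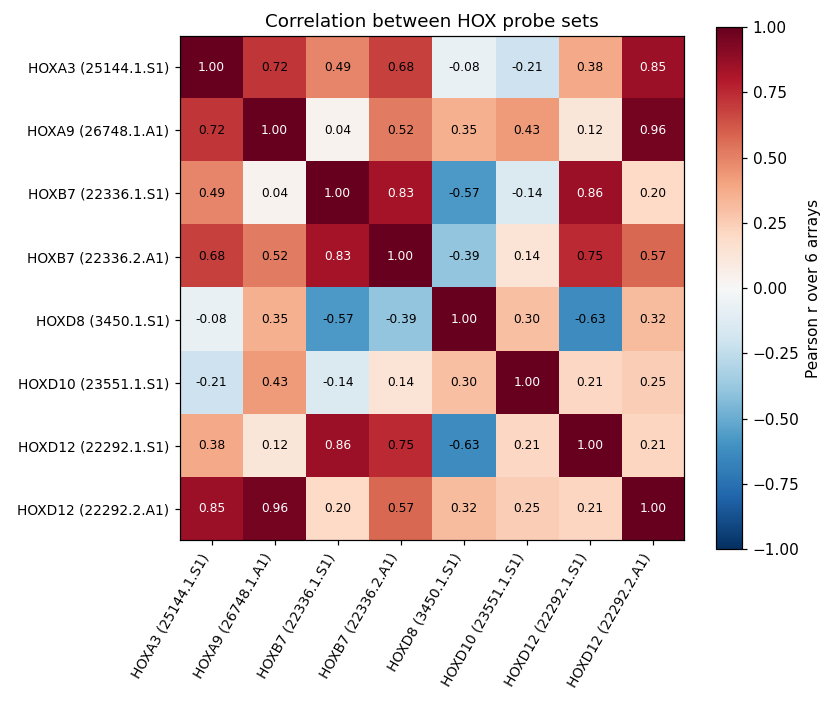
The matrix shows Pearson r over the 6 arrays for each pair of HOX probe sets, on a colour scale from -1 (blue) to 1 (red). HOXA9, HOXA3 and the second HOXD12 probe set form a red block with values of 0.72 to 0.96, and HOXB7 and the first HOXD12 probe set form another with 0.75 to 0.86.

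Among 9207 probe sets with 1 symbol and a range of at least 1 log2 unit, the genes most like each HOX gene were listed by the same measure over the 6 arrays. HOXA9 was closest to HEBP2 (0.99), ISOC2 (0.98) and ARAP2 (0.97), and the second HOXD12 probe set to FOXP1 (0.99), LOC100737768 (0.99) and CD40 (0.98). HOXA3 was closest to CD46 (0.99), CSNK1A1 (0.98) and COL8A1 (0.98). HOXD8 was closest to GLRX2, SPC25 and GMDS (each 0.99) and had 70 probe sets above 0.95, against 5 to 14 for the other HOX genes. HOXD10 was closest to MBP (0.99), ELMO3 (0.99) and LITAF (0.98), and the second HOXB7 probe set to RETREG1 (0.97), RNF13 (0.96) and ETS2 (0.96). With 6 points such lists are a weak guide. By Spearman rank correlation the closest 3 held 0 of the 3 named genes for HOXA3, HOXB7 and HOXD8. They held 1 of 3 for HOXA9 and HOXD10, and 3 of 3 for HOXD12. Equal rank correlations were ordered by probe set name. GLRX2 and GMDS ranked the arrays exactly as HOXD8 did, and ETS2 exactly as the second HOXB7 probe set did, yet ties left them out. The rank counts therefore cannot show how stable the lists are.

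Genes that act with or on the HOX genes were followed through lists; no probe set of any of these 6 lists passed limma in either direction in any of the 4 comparisons. The background is that 39.1% of all probe sets were higher in iPS than in somatic cells, with a median of -0.34. Without PAFSC 61.4% of all were higher, with a median of 0.13, and the counts of the lists moved with it; they are given beside each. Of the HOX cofactors of the TALE homeodomain class, which bind DNA beside HOX proteins, 4 of 9 genes were measured by 7 probe sets, of which 1 was higher and 6 lower in iPS cells (median -1.43), and the same numbers were higher and lower without PAFSC (median -0.65). MEIS1 was 0.55 and 1.35 in the somatic cultures PEF and PAFSC, -3.01 and -1.07 in PS24 and 30AC5, and 0.94 and -0.02 in iPF4-2 and iPSCs-w by 1 probe set. Its other probe set gave 0.11, 1.59, -1.92, -1.003, 0.59 and -0.05. Both put MEIS1 lowest in the SSEA1-labelled lines, where HOXA9 was highest; the differences between the iPS classes were -2.50 (SE 0.83, limma adjusted p = 1.00) and -1.73 (SE 0.76, limma adjusted p = 1.00). MEIS2, by 1 of its probe sets, was -4.99 in iPSCs-w and -0.29 to 0.99 elsewhere, so 1 line set its class mean. PBX2 differed by -1.53 between iPS and somatic cells (SE 0.61, limma adjusted p = 0.345), with its highest value, 2.27, in PAFSC. Without PAFSC this was -0.65, and the other PBX2 probe set differed by 0.55 (SE 0.60), with its lowest value, -1.45, in PAFSC.

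Polycomb complexes keep HOX clusters silent through histone marks. Of this list 11 of 29 genes were measured by 14 probe sets, 8 higher and 6 lower in iPS cells (median 0.37); without PAFSC 11 were higher and 3 lower (median 0.43). JARID2, which recruits the methylating complex, was -1.03 in PEF and -0.81 in PAFSC among the somatic samples, 1.67 in PS24 and 1.17 in 30AC5 with SSEA1, and 0.94 in iPF4-2 and 0.80 in iPSCs-w without it. All 4 iPS lines were above both somatic samples, as for 11.9% of all probe sets. The JARID2 difference was 2.06 (SE 0.48, limma adjusted p = 0.196). EZH2, the methylating enzyme, differed by 1.23 (SE 0.53, limma adjusted p = 0.364), and PHF1, an accessory subunit, by -1.50 (SE 0.64, limma adjusted p = 0.361). Without PAFSC these were 0.80 and -0.43. Between the iPS classes RNF2 differed by -1.03 and RING1 by 0.61, both ubiquitin ligases of the other Polycomb complex (limma adjusted p = 1.00 each).

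The Trithorax list of activators, with the demethylases that remove the Polycomb mark, had 5 of 18 genes measured by 7 probe sets. All 7 were higher in iPS cells (median 0.84), and all 7 lower in the SSEA1-labelled than in the SSEA3/SSEA4-only lines (median -0.16). PSIP1, a chromatin reader that tethers MLL complexes, differed by 1.77 (SE 0.46, limma adjusted p = 0.237) between iPS and somatic cells. The other PSIP1 probe set differed by 0.84 (SE 0.57), with PAFSC at -0.04 above PS24 at -0.52. ASH2L, a core subunit, differed by 1.63 (SE 0.68, limma adjusted p = 0.357), and by 0.55 without PAFSC; its other probe set differed by 0.11 (SE 0.62). DPY30, another core subunit, was -3.51 in PAFSC and -0.18 to 0.16 elsewhere. Its difference of 1.59 (SE 0.89, limma adjusted p = 0.429) became -0.25 without PAFSC, and without that array 6 of the 7 were higher (median 0.50).

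Retinoic acid activates HOX genes in order from the anterior end. Of this list 9 of 19 genes were measured by 13 probe sets, 2 higher and 11 lower in iPS cells (median -1.10). That count rested on PAFSC, which had the highest value of all arrays for 9 of the 13: without it 7 were higher and 6 lower (median 0.11). CRABP2, which carries retinoic acid to its nuclear receptor, was 2.91 and 0.12 in the somatic cultures PEF and PAFSC, -4.09 and -3.91 in PS24 and 30AC5, and -1.75 and -2.99 in iPF4-2 and iPSCs-w. It was below the somatic samples in all 4 lines, as were 9.99% of all probe sets. CRABP2 was lowest in the SSEA1-labelled lines, and its iPS minus somatic difference was -4.70 (SE 0.92, limma adjusted p = 0.160). RBP4, the retinol carrier, differed by -2.58 (SE 0.51, limma adjusted p = 0.160). Its other probe set differed by -1.16 (SE 0.70), with 2.47 in PAFSC, -0.07 in PEF and -0.24 to 0.21 in the iPS lines. CYP26A1, the enzyme that degrades retinoic acid, was -1.68 in PEF and -0.18 in PAFSC among the somatic samples, 1.43 in PS24 and 1.60 in 30AC5 with SSEA1, and -0.37 in iPF4-2 and 0.36 in iPSCs-w without it. Its highest values were in the SSEA1-labelled lines, with a difference of 1.53 from the SSEA3/SSEA4-only lines (SE 0.73, limma adjusted p = 1.00).

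Upstream axial factors had 2 of 12 genes measured by 4 probe sets, all 4 lower in iPS cells (median -0.75), and all 4 highest in PAFSC at 1.02 to 2.07. Without PAFSC 2 were higher and 2 lower (median 0.025). GDF11, a signal that sets the onset of posterior HOX genes, differed by -0.88 (SE 0.50, limma adjusted p = 0.430). T, the mesoderm factor brachyury, differed by -0.88 (SE 0.65, limma adjusted p = 0.461) and by 0.26 without PAFSC. Homeobox genes outside the HOX clusters had 14 of 51 genes measured by 23 probe sets, 7 higher and 16 lower in iPS cells (median -0.48); without PAFSC 12 were higher and 11 lower (median 0.079). Besides PRRX1, which differed by -5.53 (SE 1.20, limma adjusted p = 0.184), MSX1 of limb and craniofacial mesenchyme differed by -1.40 (SE 0.52, limma adjusted p = 0.335) and MEOX2 of the somites by -1.60 (SE 0.74, limma adjusted p = 0.383). Without PAFSC these were -0.81 and -0.34. The other MSX1 probe set differed by -1.23 (SE 0.86), with 3.21 in PAFSC, -0.29 in PEF and 0.10 to 0.34 in the iPS lines. DLX5, a skeletal and craniofacial factor, was 3.09 in iPF4-2, 1.07 in iPSCs-w, -0.23 in PS24 and -0.46 in 30AC5. Its class difference of -2.43 (SE 0.85, limma adjusted p = 1.00) ran opposite to that of HOXA9 and of PRRX1, which differed by 3.62 (SE 0.67, limma adjusted p = 0.398).

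**Figure D5:**
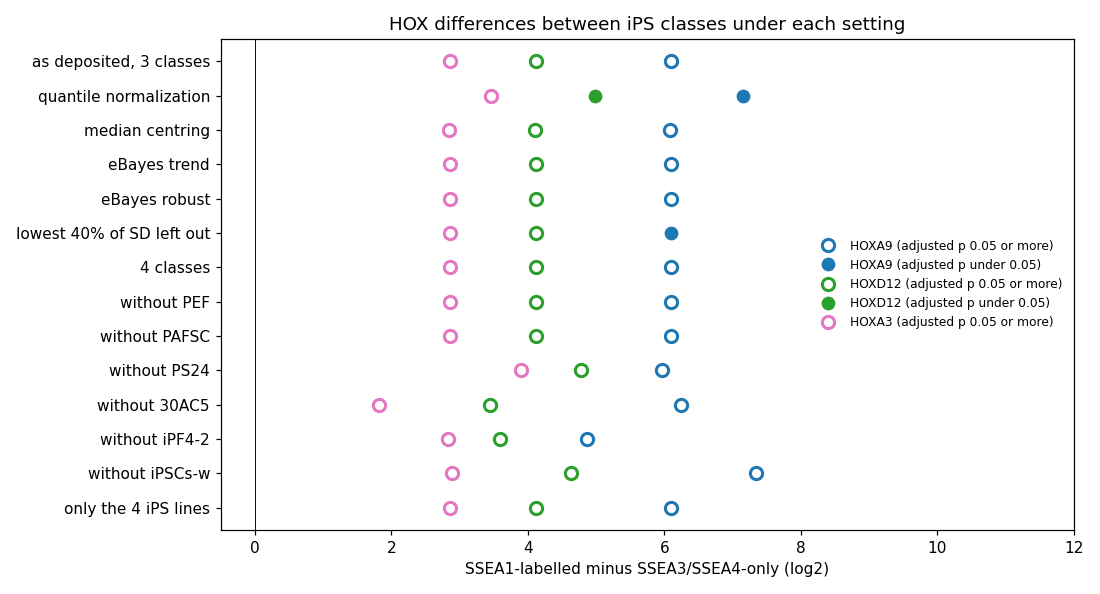
The horizontal axis is the log2 difference, SSEA1-labelled minus SSEA3/SSEA4-only lines, of HOXA9, the second HOXD12 probe set and HOXA3 under each processing setting named on the vertical axis; filled points had a limma adjusted p under 0.05 and open points did not. All points lie above 0, from 1.81 for HOXA3 without 30AC5 to 7.34 for HOXA9 without iPSCs-w, and 3 points are filled. Only quantile normalization, median centring and leaving out an iPS line can move a point. The other settings leave the difference as it was and change only its p-value.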

How the data were processed

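Biotin-labelled cRNA made from total RNA was hybridised, per the labels' protocols. The authors deposited 1 table of log2 values for 24123 probe sets on 6 arrays; of its software, background correction, normalization and baseline nothing is given in the sources used here, and the log base was taken as 2 from the values. The 124 array controls were left out. The annotation gave 1 symbol to 10069 of 23999 probe sets, several to 198 and none to 13732, and all 8 HOX gene IDs were found in RefSeq under the same symbol.

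Samples were grouped by label. limma 3.58.1 in R 4.3.3 gave the tests (lmFit, eBayes, two-sided, Benjamini-Hochberg over 23999 probe sets, threshold 0.05). iPS against somatic had 2 classes and 4 residual degrees of freedom; the other comparisons shared 1 fit of 3 classes with 3. On simulated data with 50 probe sets changed per size, iPS against somatic recovered 0% at 2 log2 units, 44% at 4 and 58% at 6. SSEA1-labelled against SSEA3/SSEA4-only recovered 0%, 2% and 22%, and SSEA1-labelled against somatic 0%, 4% and 36%. SSEA3/SSEA4-only against somatic recovered 0% at each of these sizes. The simulated noise of a probe set had 1 SD on every array, taken within the 3 classes. A spread wider on PAFSC alone and, for iPS against somatic, gaps between iPS classes were not simulated.

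Named were all HOX probe sets, of each companion list the up to 3 genes with the smallest p for iPS against somatic and 2 between iPS classes, the 3 genes most like each HOX gene, and label markers; part of these is printed. The members and lists were chosen with earlier results of these data known. Alternatives were quantile normalization, median centring, eBayes with trend or robust (statmod 1.5.0), leaving out the lowest 40% by SD, 4 classes, only the iPS lines, 1 probe set per gene, and leaving out each array. The companion lists without PAFSC were added after seeing the data.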

Additional observations from a re-analysis of the deposited data

Results flagged for a closer look

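HOXA9 had effects of opposite direction in the iPS classes: PS24 and 30AC5 lay above both somatic samples, and iPF4-2 and iPSCs-w below both. The SSEA1-labelled minus SSEA3/SSEA4-only difference was 6.10, and limma's test of that difference gave an adjusted p of 0.234.

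The second HOXD12 probe set (Ssc.22292.2.A1_at) showed the same order, with a difference of 4.11 and a limma adjusted p of 0.392. The other HOXD12 probe set did not show it. Of all probe sets, 0.529% had the SSEA1-labelled lines above and the SSEA3/SSEA4-only lines below both somatic samples.

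Dixon's ratio over the 4 iPS lines was largest, at 0.781, for the first HOXD12 probe set with 30AC5 apart. Whether that ratio passes depends on the level chosen for Dixon's test, which is not given here. No HOX value is therefore called an outlier or cleared of being one.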

How the results depend on the processing

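Of the HOX values under the alternatives, 368 kept their direction and, where tested, their side of the threshold. Of the rest, 13 newly passed, 21 changed sign and 2, with no test, moved by more than the spread between arrays. Many of these values could not change direction. The eBayes settings and the SD filter leave a difference as it was, as does leaving out an array outside the comparison. The use of 4 classes changes a difference only in iPS minus somatic. The 368 are therefore no measure of how stable the directions are. In iPS minus somatic, HOXA9 was -0.0685 under quantile normalization and -0.81 to 1.69 with 1 array left out. The second HOXD12 probe set was 0.21 under median centring, 0.59 with 4 classes and -1.001 to 0.76 with 1 array left out. With 1 array left out HOXD10 was -0.12 to 1.39, the first HOXD12 probe set -2.18 to 0.13, DPY30 -0.25 to 3.43 and T -2.03 to 0.26. In an alternative chosen after seeing the data, without PAFSC, the list medians in iPS minus somatic became 0.11 for the retinoic acid pathway, 0.0249 for upstream axial factors and 0.0791 for other homeobox genes, and those of the other 3 lists kept their sign. The first HOXB7 probe set was -0.77 to 1.01 between iPS classes. In SSEA1-labelled minus somatic, HOXA3 was 0.16 under quantile normalization, 0.26 under median centring and -1.08 to 1.01 with 1 array left out, and the first HOXD12 probe set -1.94 to 0.36. In SSEA3/SSEA4-only minus somatic HOXD10 was -0.40 to 1.10. PAFSC minus PEF turned under quantile normalization for HOXB7 (-0.0565 and -0.12) and HOXD8 (0.63).

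Counts of called probe sets moved more. For iPS against somatic, limma called 6 as reported, 1 with median centring, 2 with a trend, 522 of 14399 without the lowest 40% by SD, 0 with 4 classes, and 0 to 14303 with 1 array left out (14303 without PEF, 136 without PAFSC). Between iPS classes it called 0 as reported, 90 under quantile normalization, 61 with the SD filter, 4 with only the iPS lines and 0 to 4 with 1 array left out. For SSEA1-labelled against somatic it called 0, 7 under quantile normalization, 95 with the SD filter and 0 to 14241. For SSEA3/SSEA4-only against somatic it called 0, 3, 197 and 0 to 14432. The SD filter tests fewer and more variable probe sets by construction; with it HOXA9 between iPS classes (limma adjusted p = 0.00022) and HOXD8 in iPS minus somatic (limma adjusted p = 0.0307) passed, and HOXD10 was not tested. The cause of the other moves was not tested. Where an array left out leaves a class with 1 array, that array is assumed to vary like the others.

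Quantile normalization and median centring moved the median of all probe sets in iPS minus somatic from -0.34 to -0.04, and the number higher from 9393 to 11383 and 11645 of 23999; HOX counts became 2 and 4 higher of 8. No paired analysis was possible because the labels do not link any samples by donor animal or starting cell. Depth does not apply to arrays; 6 arrays limit every interval.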
